A study of Mus musculus with 13 samples.

Results

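Rpl29, Mst1r, Ryk, Acpp, Paqr9, Pcbp4, Spsb4 and Lsmem2 are 8 of the 55421 genes counted in this series on mouse bone marrow HSPCs, the stem and progenitor cells that form the blood. They lie on chromosome 9 at distances of -2.61 to -14.96 Mb from Setd2, where a minus marks lower coordinates. They were picked by name from genes within 20 Mb of Setd2 for large differences between the 4 genotypes in these same libraries. The values that chose them are therefore described with no p-value, and counts of the 8 past a threshold do not test them. All 8 passed the filter on low counts. The choice did not take in every neighbour with a change of that size. The smallest difference among the 8 between Setd2 knockout and wild type was 1.21 in size on the log2 scale (Spsb4). Of 375 other tested genes within 20 Mb, 40 differed there by at least 2 in size (adjusted p under 0.05, edgeR quasi-likelihood test). A gene just below the size of Spsb4 was Ano10, 11.56 Mb on the other side of Setd2, with a log2 difference of -1.20. Just outside the 20 Mb limit stood Bcl2a1a at -21.57 Mb, with a log2 difference of -1.57, and Snhg5 at -22.01 Mb, with 1.23.

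The series compares the loss of Setd2, which encodes the main methyltransferase that trimethylates histone H3 on the bodies of transcribed genes, with a mutation of Srsf2, which encodes a splicing factor. Bulk RNA-seq covered 4 groups named only by genotype: Setd2 knockout with Srsf2 mutated (called double mutant here, n = 3), Srsf2 mutated (n = 3), Setd2 knockout (n = 2) and wild type (n = 2). A further 3 single-cell samples were not analysed here. For those, the labels give Mx1-Cre, an interferon-inducible recombinase that pIpC switches on, the alleles Setd2 fl/fl and Srsf2 P95H/+, lineage-negative c-Kit-positive marrow cells, and bone marrow transplant hosts 4 weeks after pIpC. For the bulk libraries the exact alleles, Cre, cell sort, hosts, sex, age and strain are not given in the sources used here. Nor do the labels say that the libraries of a group came from separate mice, so every p-value measures only the spread between libraries. In a bulk library, fewer cells of a type and less RNA per cell cannot be told apart.

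Total counts ran from 32117387 to 50445434 a library. Levels are given as CPM, counts scaled to a common library total after adjusting the totals by TMM factors. The targeted gene did not check the labels: Setd2 had 131.3, 129.6 and 130.2 CPM in double mutant and 213, 221 and 157 CPM in Srsf2 mutated cells. It had 231 and 213 CPM in the libraries labelled Setd2 knockout, against 158 and 145 CPM in wild type. A count over the whole gene need not show the loss of some of its exons, so the word knockout below is the label's. Of all genes tested, 18.7% rose and 19.9% fell between labelled knockout and wild type. Between double mutant and Srsf2 mutated libraries 17.8% rose and 15.9% fell. All 8 HSPC markers were present in every group. Of these markers 2 rose and 2 fell in the first comparison, and none rose and 7 fell in the second. Most of their summed level was Mpo, the myeloperoxidase of granulocyte progenitors, with means of 3127 CPM in double mutant, 4293 in Srsf2 mutated, 6927 in labelled knockout and 11909 in wild type libraries. Kit, the stem cell factor receptor, averaged 163.2, 206.2, 444.5 and 422.4 CPM in the same order. The sum of 8 erythroid markers was 11360 to 12076, 3075 to 3844, 414.6 to 414.7 and 124.9 to 129.7 CPM in the same order, and 6 neutrophil markers summed to 31282 to 32019, 15548 to 19364, 9553 to 10257 and 23213 to 29157 CPM. No marker of the 10 cell types examined was at 0 in every library. Xist, read from the inactive X chromosome, had 6.81 to 7.94, 1.39 to 2.54, 0.562 to 0.635 and 472 to 499 CPM, and the Y-linked Ddx3y had 119.5 to 128.2, 103.7 to 119.5, 0 and 0 CPM. The labelled knockout libraries thus had little Xist and no Ddx3y. Cell makeup and sex-linked RNA differed between the groups along with the 8 genes. Their part in the differences was not tested, and this design cannot tell it apart from that of genotype.

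The 8 genes have little in common in function. Mst1r (RON, in the mouse also STK) is the receptor tyrosine kinase for macrophage-stimulating protein, Ryk is a Wnt receptor whose kinase-like domain is inactive, and Paqr9 belongs to the progestin and adipoQ receptor family of membrane proteins. Acpp is a transmembrane acid phosphatase that can turn extracellular AMP into adenosine, and Rpl29 is a protein of the large ribosomal subunit. Pcbp4 binds poly(C) stretches in RNA, Spsb4 is an adaptor that brings substrates to a cullin-type ubiquitin ligase, and Lsmem2 is a leucine-rich membrane protein of little studied function. In mice the Mst1r locus is also known as Fv2, which sets the susceptibility of erythroid precursors to Friend virus: inbred strains differ in a short form of the receptor that is made from an internal start site. Genes that lie near a deleted locus are carried along with the targeted chromosome in breeding. Alleles linked to the Setd2 locus and the loss of Setd2 therefore cannot be told apart in this design.

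Start-site sequences were taken for the members with an entry in the RefSeq promoter table (GRCm38.p6), 250 bases upstream and 30 downstream. The 2 starts of Mst1r are shown because its count cannot separate them, Ryk and Lsmem2 because they were high in the same libraries as Mst1r, and Acpp because it was low in the labelled knockout libraries, where those 3 genes were highest. Capitals mark matches on either strand to a GC box (GGGCGG), an ETS site (CCGGAA) or a GATA factor site (the letters GATA with A or T before them and A or G after them), and no 2 matches overlap.
Mst1r, first start, chr9:107906639-107906918, plus strand: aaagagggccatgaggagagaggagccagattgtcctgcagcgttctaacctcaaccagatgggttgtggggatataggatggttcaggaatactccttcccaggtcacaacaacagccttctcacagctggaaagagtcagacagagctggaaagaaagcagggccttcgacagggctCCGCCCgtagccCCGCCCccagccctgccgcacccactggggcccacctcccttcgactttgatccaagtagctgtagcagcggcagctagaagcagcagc
Mst1r, internal start, chr9:107914753-107915032, plus strand: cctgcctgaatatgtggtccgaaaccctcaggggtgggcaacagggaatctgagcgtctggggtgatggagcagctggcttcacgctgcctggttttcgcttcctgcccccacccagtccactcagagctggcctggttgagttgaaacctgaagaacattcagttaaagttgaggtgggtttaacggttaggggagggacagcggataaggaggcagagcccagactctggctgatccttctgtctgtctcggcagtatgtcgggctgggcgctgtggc
Ryk, chr9:102834670-102834949, plus strand: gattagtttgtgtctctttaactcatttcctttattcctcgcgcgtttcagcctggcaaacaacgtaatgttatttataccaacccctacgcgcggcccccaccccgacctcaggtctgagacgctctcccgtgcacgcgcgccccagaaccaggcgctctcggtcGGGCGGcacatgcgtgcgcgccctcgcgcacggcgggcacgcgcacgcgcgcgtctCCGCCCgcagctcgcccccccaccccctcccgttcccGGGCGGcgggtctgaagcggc
Lsmem2, chr9:107597046-107597325, minus strand: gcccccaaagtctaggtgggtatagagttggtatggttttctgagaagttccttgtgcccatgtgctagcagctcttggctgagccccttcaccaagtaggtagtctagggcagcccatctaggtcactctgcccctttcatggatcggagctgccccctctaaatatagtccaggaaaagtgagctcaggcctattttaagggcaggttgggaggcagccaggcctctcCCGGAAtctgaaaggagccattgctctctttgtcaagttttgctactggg
Acpp, chr9:104337693-104337972, minus strand: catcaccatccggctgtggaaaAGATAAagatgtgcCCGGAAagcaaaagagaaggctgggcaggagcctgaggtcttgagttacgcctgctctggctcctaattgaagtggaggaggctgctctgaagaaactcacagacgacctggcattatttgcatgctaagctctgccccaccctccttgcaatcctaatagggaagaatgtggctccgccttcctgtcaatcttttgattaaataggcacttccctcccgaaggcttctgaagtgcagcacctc
The first Mst1r start held 2 GC boxes and the Ryk start 3, while the Lsmem2 start held 1 ETS site and the Acpp start 1 GATA and 1 ETS site. No searched letters were in the window of the internal Mst1r start. Of all 32851 promoter windows of that length, 34.7% held a GC box, 28.7% a GATA site and 14.2% an ETS site. Ryk had 38 CpG dinucleotides in its window and a GC content of 66.8%, whereas Lsmem2 had 2 and 52.9%. The Spsb4 window, not printed, held 1 GC box, 30 CpG dinucleotides and a GC content of 67.9%. Rpl29, Paqr9 and Pcbp4 had no entry.

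Between the libraries labelled Setd2 knockout and wild type, all 8 genes were past the threshold (adjusted p under 0.05, edgeR quasi-likelihood test), 4 higher and 4 lower. Of all 19289 genes tested, 38.6% were past it, 18.7% higher and 19.9% lower, so the count reads only as the way the members were picked. A large difference, past the threshold and at least 4-fold, was seen for 6 of the 8 and for 7.21% of all genes. The library values did not overlap for any of the 8 in this comparison, as was so for 73.1% of all genes. Between double mutant and Srsf2 mutated libraries, which share no library with the first pair, the 8 were also past the threshold, 5 higher and 3 lower, beside 33.8% of all genes (17.8% higher, 15.9% lower). There 2 of the 8 differences were large (4.02% of all genes), and again none of the 8 overlapped (45.4% of all genes). The direction was the same in both comparisons for 7 of the 8, all but Acpp. Both comparisons were known when the 8 were picked, so the counts of the second also read only as that choice.

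**Figure D1:**
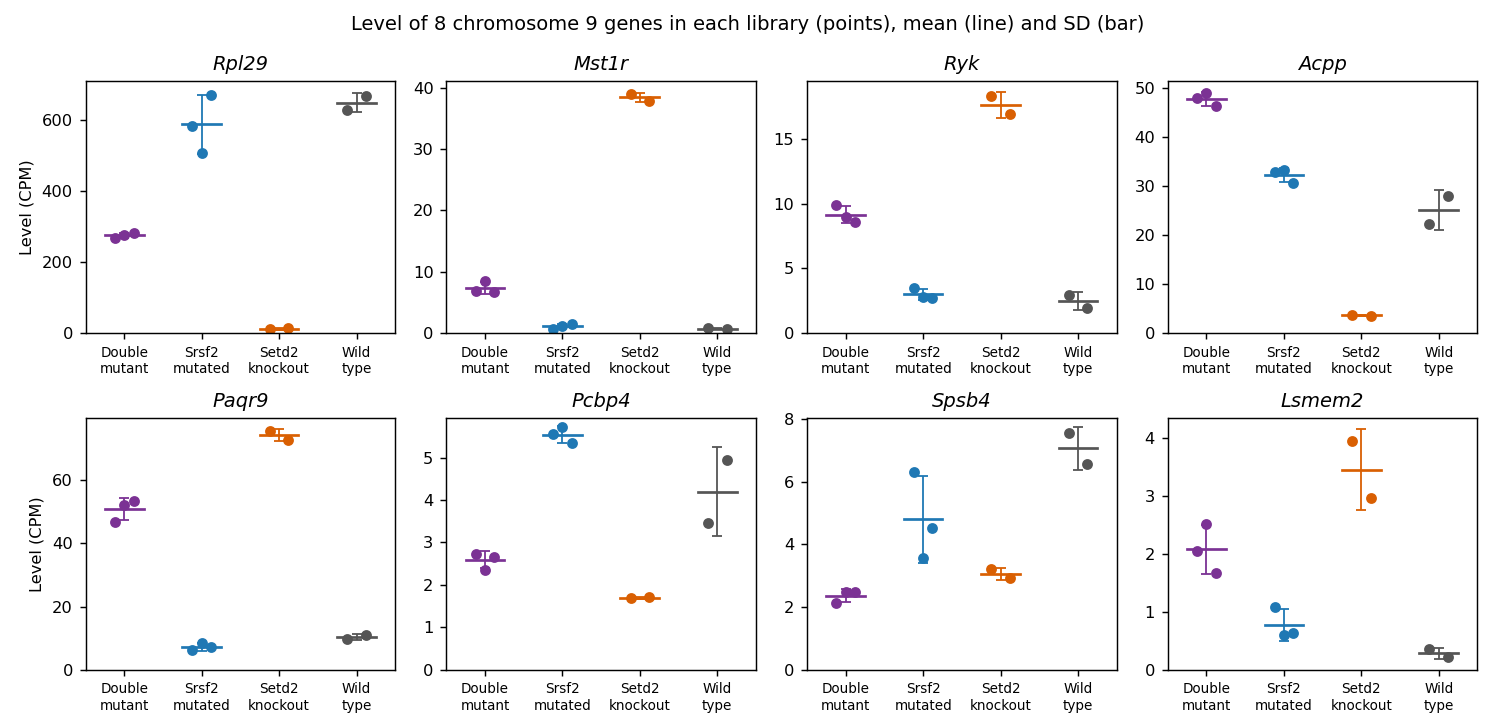
Level of each of the 8 genes in CPM (linear axis from 0) in each library (points), with the group mean (line) and SD (bar), for double mutant (n = 3), Srsf2 mutated (n = 3), labelled Setd2 knockout (n = 2) and wild type (n = 2). Rpl29 averages 12.4 CPM in the labelled knockout libraries, against 649.7 in wild type, while Mst1r averages 38.4 against 0.729.

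Mst1r (ENSMUSG00000032584, chr9:107906873-107920383, plus strand, protein coding) was close to silent without Setd2 loss. It had 6.88, 8.53 and 6.76 CPM in double mutant and 0.726, 1.11 and 1.39 CPM in Srsf2 mutated cells. It had 38.9 and 37.9 CPM in the labelled knockout libraries, against 0.800 and 0.659 CPM in wild type, from 1803 and 1790 counts against 34 and 28. Both Setd2-loss groups stood above both of the others with no overlap, and the labelled knockout libraries stood far above the double mutant ones. The labelled knockout level was 52.5-fold that of wild type (log2 5.71, SE 0.24), and the double mutant level 6.90-fold that of Srsf2 mutated (log2 2.79, SE 0.18). The second log2 difference minus the first was -2.93 (SE 0.305). The annotated gene has a first start at position 107906889, in exon 1, and an internal start at 107915003, 8114 bases further along, in intron 10 of the full-length transcript and at the start of a retained-intron transcript. The deposited count is one number for the whole gene, so which of these starts the reads came from was not tested.

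Of 20 tested genes of Mst1r and Met signaling, other than Mst1r, 4 rose and 11 fell between labelled knockout and wild type, where 18.7% of all genes rose and 19.9% fell. Between double mutant and Srsf2 mutated libraries 6 rose and 5 fell, where 17.8% and 15.9% of all genes did. The median log2 differences were -0.30 and 0.04, beside 0.04 and 0 over all genes. Under upper-quartile scaling 5 rose and 6 fell in either comparison, with medians of -0.21 and -0.01. Mst1 encodes the ligand itself and lies at -2.45 Mb; it averaged 3.37 ± 0.888 CPM in double mutant and 1.07 ± 0.545 CPM in Srsf2 mutated libraries (SD, n = 3 each), a rise of 1.64 on the log2 scale (adjusted p = 0.00182, edgeR quasi-likelihood test). In the labelled knockout libraries Mst1 averaged 1.01 CPM, against 0.870 CPM in wild type (log2 0.21, adjusted p = 0.758, edgeR). Mst1 was named after its values were seen. Hpn (hepsin), a protease known to activate the ligand, rose in both comparisons, by 1.65 in double mutant (adjusted p = 2.66e-07) and 2.18 in labelled knockout libraries (adjusted p = 1.42e-07, edgeR). St14 (matriptase), another activating protease, fell in both (log2 -1.59 and -1.39, adjusted p = 3e-08 and 2.42e-06, edgeR). Spint2, an inhibitor of such proteases, fell too (log2 -0.42 and -0.83, adjusted p = 0.000811 and 9.91e-06, edgeR).

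Ryk (ENSMUSG00000032547, chr9:102834917-102908305, plus strand) followed the same order of groups at a smaller scale. It had 9.88, 8.94 and 8.58 CPM in double mutant and 3.47, 2.76 and 2.71 CPM in Srsf2 mutated libraries. It had 18.3 and 16.9 CPM in the labelled knockout libraries, against 2.94 and 1.95 CPM in wild type. The Srsf2 mutated and wild type libraries overlapped, and both Setd2-loss groups lay above them. Ryk was 3.06-fold higher in double mutant (log2 1.61, SE 0.16) and 7.19-fold higher in labelled knockout libraries (log2 2.85, SE 0.20). Among 18 tested genes of Wnt receptors and planar polarity, 3 rose and 4 fell in the labelled knockout (5 and 4 under upper-quartile scaling). That was 38.9%, against 38.6% of all genes. In the double mutant comparison 2 rose and 6 fell (44.4%, against 33.8% of all genes). Ptk7, another receptor with an inactive kinase domain, fell in double mutant (log2 -2.67, adjusted p = 4.76e-09) and in labelled knockout libraries (log2 -2.28, adjusted p = 1.53e-07, edgeR). Fzd7, a Frizzled receptor, rose by 0.74 and 1.02 (adjusted p = 1.96e-05 and 6.86e-06, edgeR). Lrp5, a Wnt co-receptor, fell in both (log2 -0.53 and -0.65, adjusted p = 6.61e-05 and 6.41e-05, edgeR).

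Paqr9 (ENSMUSG00000064225, chr9:95559657-95568023, plus strand), the member farthest from Setd2, differed by nearly the same factor on both backgrounds. It had 46.8, 52.2 and 53.4 CPM in double mutant and 6.12, 8.45 and 7.16 CPM in Srsf2 mutated libraries. It had 75.7 and 72.9 CPM in the labelled knockout libraries, against 9.60 and 11.1 CPM in wild type. None of the 4 groups overlapped another. The double mutant level was 7.0-fold that of Srsf2 mutated (log2 2.81, SE 0.11), and the labelled knockout level 7.17-fold that of wild type (log2 2.84, SE 0.13). The difference of the log2 differences was -0.04 (SE 0.167). All 8 erythroid markers rose in both comparisons too, at unlike levels. Of all genes 18.7% rose in the labelled knockout and 17.8% in the double mutant comparison. Epor, the erythropoietin receptor, averaged 66.5 CPM in double mutant, 13.9 in Srsf2 mutated, 68.0 in labelled knockout and 16.3 in wild type libraries, high in the same groups as Paqr9. Klf1, an erythroid transcription factor, averaged 119.1, 21.3, 128.6 and 50.9 CPM, and the globin gene Hba-a1 6749, 2374, 79.5 and 29.1 CPM in the same order. The part of erythroid cells in the Paqr9 difference was not tested. Of 9 other tested genes of the Paqr9 family, 3 fell in the labelled knockout comparison, which were Paqr7, Adipor1 and Adipor2, and none rose. Of all genes 19.9% fell there and 18.7% rose. In the double mutant comparison 3 of the 9 rose and none fell (33.3%, against 33.8% of all genes past the threshold). Adipor1, an adiponectin receptor, fell by 0.71 in labelled knockout libraries (adjusted p = 5.68e-06) and rose by 0.72 in double mutant libraries (adjusted p = 3.15e-07, edgeR). Paqr7, a membrane progestin receptor, fell by 1.17 in labelled knockout libraries (adjusted p = 4.12e-07, edgeR) and differed by -0.07 in double mutant libraries (adjusted p = 0.574, edgeR).

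Acpp (ENSMUSG00000032561, chr9:104288251-104337748, minus strand) was the member whose direction turned. It had 48.0, 49.2 and 46.4 CPM in double mutant and 33.0, 33.3 and 30.6 CPM in Srsf2 mutated libraries. It had 3.69 and 3.49 CPM in the labelled knockout libraries, against 22.2 and 28.1 CPM in wild type. The labelled knockout libraries alone were low, and the double mutant ones were the highest of all, with no overlap between any of the 4 groups. The log2 difference was 0.57 (SE 0.09) in double mutant and -2.81 (SE 0.13) in labelled knockout libraries, and the first minus the second was 3.37 (SE 0.155). The 3 eosinophil markers examined were also lowest in labelled knockout libraries, but only Prg2 and Il5ra were highest in double mutant ones. Prg2, a granule protein, averaged 1110 CPM in double mutant, 912.4 in Srsf2 mutated, 81.9 in labelled knockout and 459.8 in wild type libraries. Epx, the eosinophil peroxidase, averaged 238.5, 257.5, 58.8 and 323.5 CPM, and Il5ra, a cytokine receptor chain, 4.74, 2.29, 1.07 and 1.67 CPM in the same order. The part of these cells in the Acpp difference was not tested. Of 13 tested acid phosphatases, ecto-nucleotidases and adenosine receptors, 2 rose and 3 fell in labelled knockout libraries (3 and 3 under upper-quartile scaling). That was 38.5%, against 38.6% of all genes. In double mutant libraries 5 rose and 4 fell (69.2%, against 33.8% of all genes). Entpd1 (CD39), which makes the AMP that Acpp can use, also turned: it rose by 1.45 in double mutant (adjusted p = 9.76e-10) and fell by 0.78 in labelled knockout libraries (adjusted p = 2.23e-05, edgeR). Adora2a, an adenosine receptor, fell in both (log2 -0.42 and -0.93, adjusted p = 0.0275 and 0.000371, edgeR), and Acp6, a lysophosphatidic acid phosphatase, fell in double mutant and rose in labelled knockout libraries (log2 -0.72 and 0.39, adjusted p = 5.71e-06 and 0.00662, edgeR).

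Rpl29 (ENSMUSG00000048758, chr9:106429454-106431568, plus strand) showed the lowest level relative to its control. It had 268, 276 and 283 CPM in double mutant and 585, 507 and 672 CPM in Srsf2 mutated libraries. It had 10.1 and 14.6 CPM in the labelled knockout libraries, against 630.2 and 669 CPM in wild type, from 468 and 690 counts against 26791 and 28447. Srsf2 mutated and wild type libraries overlapped, the double mutant libraries were all below them, and the labelled knockout libraries were below every other. The log2 difference was -1.09 (SE 0.11) in double mutant and -5.72 (SE 0.16) in labelled knockout libraries, or 0.468 of the Srsf2 mutated level and 0.0190 of the wild type level. Per length, Rpl29 ranked 51 of 85 cytosolic ribosomal protein genes in double mutant (234 FPKM), 23 in Srsf2 mutated (536 FPKM), 78 in labelled knockout (11.9 FPKM) and 27 in wild type (541 FPKM). The median of the other ribosomal protein genes was 313, 334, 340.3 and 390 FPKM in the same groups.

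Of the 84 other ribosomal protein genes tested, 3 rose and 52 fell in the labelled knockout comparison, where 18.7% of all genes rose and 19.9% fell, with a median log2 difference of -0.35. In double mutant libraries 2 rose and 4 fell, where 17.8% and 15.9% of all genes did, with a median of -0.05. Under upper-quartile scaling 4 rose and 28 fell in the first comparison, with a median of -0.26, and 1 rose and 9 fell in the second, with a median of -0.11. Rplp0, a stalk protein, fell in labelled knockout libraries (log2 -0.57, adjusted p = 0.000617, edgeR), as did Rpl39 (-0.66, adjusted p = 0.000665). In double mutant libraries Rplp0 and Rpl39 differed by -0.14 and 0.04, with adjusted p of 0.248 and 0.788 (edgeR).

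Rpl29 has many copies that share part of its sequence, mostly processed pseudogenes. How reads that match several copies were counted is not given in the sources used here. Of the 1231 distinct stretches of 31 bases in Rpl29, at least 5% were also found in each of 63 other genes. Of these genes 42 had a count. None of the other members shared that much with any gene, except Spsb4 with 1 gene. The level of Rpl29 is therefore uncertain, and its copies are given beside it. Gm8210, a processed pseudogene on chromosome 1 (chr1:43189156-43189638), had 14.2, 16.8 and 16.5 CPM in double mutant and 0.522, 0.464 and 0.557 CPM in Srsf2 mutated libraries. It had 16.9 and 14.7 CPM in labelled knockout libraries, against 0.259 and 0.353 CPM in wild type. It rose by 4.95 in double mutant (adjusted p = 3.32e-12) and 5.68 in labelled knockout libraries (adjusted p = 1.18e-10, edgeR), to about the same level in both Setd2-loss groups.

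Gm10709, a pseudogene on chromosome 9 (chr9:7751725-7752204) but far outside the 20 Mb window, went the way of Rpl29. It had 9.58, 9.56 and 10.9 CPM in double mutant and 15.0, 11.9 and 17.7 CPM in Srsf2 mutated libraries. It had 0.108 and 0.233 CPM in labelled knockout libraries, against 11.1 and 14.2 CPM in wild type. It fell in double mutant (log2 -0.57, adjusted p = 0.00935) and in labelled knockout libraries (log2 -6.19, adjusted p = 9.44e-10, edgeR). Gm5561 on chromosome 1 fell in both (log2 -2.0 and -5.30, adjusted p = 0.0227 and 0.000434, edgeR), and Gm13841 on chromosome 5 differed by 0.16 and 0.41 (adjusted p = 0.509 and 0.15, edgeR). Gm15454 fell by 2.28 in labelled knockout libraries (adjusted p = 0.00546, edgeR). All copies except Uimc1, a coding gene with transcripts that hold 30.9% of those stretches, summed to 51.3 to 62.6 CPM in double mutant, 38.0 to 52.6 in Srsf2 mutated, 29.1 to 32.9 in labelled knockout and 23.3 to 28.5 in wild type libraries. With Rpl29 added, the sums were 319 to 345, 545 to 725, 43.0 to 43.7 and 653 to 698 CPM. Rpl29 itself made up most of the sum outside the labelled knockout libraries, so the low sum there mostly restates its own low level. The copies alone summed higher in labelled knockout than in wild type libraries, and this rested on Gm8210. It had 16.9 and 14.7 CPM in labelled knockout and 0.259 and 0.353 CPM in wild type libraries, while Gm10709, Gm15454 and Gm5561 fell. How reads that match several copies were counted is not known, so the sum cannot settle the level of Rpl29.

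**Figure D2:**
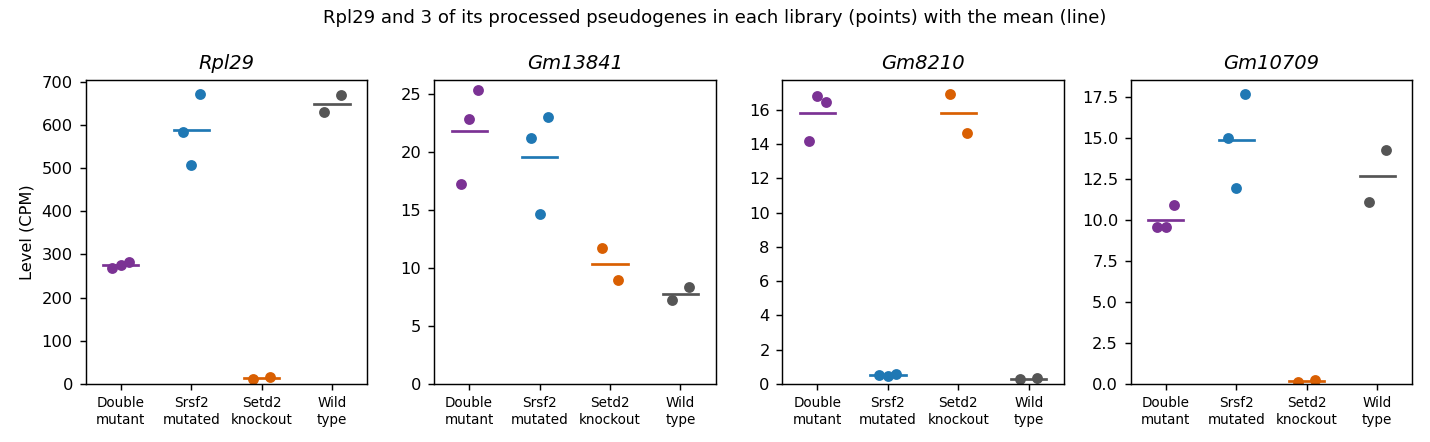
Level of Rpl29 and 3 of its processed pseudogenes in CPM (linear axes from 0, each with its own scale) in each library (points), with the group mean (line). Gm8210 is between 14.2 and 16.9 CPM in both Setd2-loss groups and under 1 CPM in the others, while Gm10709 is under 1 CPM in the labelled knockout libraries only.

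Pcbp4 (ENSMUSG00000023495, chr9:106453291-106464012, plus strand) was low in both Setd2-loss groups. It had 2.74, 2.36 and 2.67 CPM in double mutant and 5.56, 5.73 and 5.34 CPM in Srsf2 mutated libraries. It had 1.69 and 1.71 CPM in labelled knockout libraries, against 3.46 and 4.94 CPM in wild type. No 2 groups overlapped, and the Srsf2 mutated libraries were the highest. The log2 difference was -1.10 (SE 0.18) in double mutant and -1.30 (SE 0.23) in labelled knockout libraries. Of 4 other poly(C)-binding genes tested, none rose in either comparison, 3 fell in labelled knockout and 1 fell in double mutant libraries. Of all genes 19.9% fell in labelled knockout and 15.9% in double mutant libraries. Pcbp3 fell in double mutant (log2 -0.68, adjusted p = 0.000875) and in labelled knockout libraries (log2 -0.73, adjusted p = 0.0024, edgeR). Pcbp2 and Pcbp1 fell in labelled knockout libraries (log2 -0.33 and -0.31, adjusted p = 0.00212 and 0.0114, edgeR), Pcbp1 with an adjusted p of 0.0642 under upper-quartile scaling. Pcbp4 is known in human cells as a target of p53. Of 15 other p53 targets tested, 4 rose and 1 fell in labelled knockout libraries (33.3%, against 38.6% of all genes). In double mutant libraries 5 rose and 1 fell (40%, against 33.8%). Cdkn1a (p21) was the gene that fell in both (log2 -0.47 in double mutant and -0.64 in labelled knockout). Its adjusted p was 0.000905 and 0.001 (edgeR), and it was named after its values were seen. Gadd45a, a stress sensor, rose by 1.08 in double mutant (adjusted p = 2.28e-08) and 0.54 in labelled knockout libraries (adjusted p = 0.000665, edgeR). Pmaip1 (Noxa), a cell death gene, and Mdm2, the ubiquitin ligase of p53, rose by 0.98 and 0.43 in labelled knockout libraries (adjusted p = 4.52e-05 and 0.000234, edgeR). In double mutant libraries Pmaip1 and Mdm2 differed by -0.11 and 0.13 (adjusted p = 0.442 and 0.107, edgeR).

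Spsb4 (ENSMUSG00000046997, chr9:96943482-97018843, minus strand) had the smallest difference of the 8 in the labelled knockout comparison. It had 2.12, 2.47 and 2.48 CPM in double mutant and 6.30, 3.57 and 4.53 CPM in Srsf2 mutated libraries. It had 3.197 and 2.92 CPM in labelled knockout libraries, against 7.55 and 6.56 CPM in wild type. The 3 Srsf2 mutated libraries spread most, from 3.57 to 6.30, and still lay above the double mutant ones. The log2 difference was -1.02 (SE 0.21) in double mutant and -1.21 (SE 0.24) in labelled knockout libraries. Of 8 other parts of such ubiquitin ligases tested, 1 rose and 3 fell in labelled knockout libraries (50%, against 38.6% of all genes). In double mutant libraries 1 rose and 2 fell (37.5%, against 33.8%). Elob, an elongin subunit, and Spsb2, a paralog, fell in labelled knockout libraries (log2 -0.47 and -0.68, adjusted p = 0.00259 and 0.0104, edgeR). Cul5, the cullin scaffold, rose by 0.35 in labelled knockout (adjusted p = 0.0193) and fell by 0.27 in double mutant libraries (adjusted p = 0.0305, edgeR).

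Lsmem2 (ENSMUSG00000103409, chr9:107593841-107597075, minus strand) is listed as a long noncoding RNA in the GENCODE annotation and as protein coding in RefSeq. It had 2.05, 2.51 and 1.68 CPM in double mutant and 1.09, 0.605 and 0.633 CPM in Srsf2 mutated libraries. It had 3.95 and 2.96 CPM in labelled knockout libraries, against 0.353 and 0.212 CPM in wild type, the last from 15 and 9 counts. No 2 groups overlapped, and wild type was lowest. The log2 difference was 1.42 (SE 0.32) in double mutant and 3.60 (SE 0.44) in labelled knockout libraries, with the widest errors of the 8. Gm38150, a noncoding gene on the other strand, overlaps it and averaged 1.18, 0.134, 0.801 and 0.0588 CPM in double mutant, Srsf2 mutated, labelled knockout and wild type libraries. Whether strand was kept in counting is not given in the sources used here, so reads of the pair cannot be told apart. Lsmem1, the other gene of that name, was not tested because its counts were too low.

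Per length, as FPKM, the order of the 8 genes changed with genotype. Rpl29 was highest in each group by mean. In double mutant libraries Acpp (6.26 FPKM) and Paqr9 (5.82 FPKM) came next, and their library values overlapped. Ryk, Mst1r and Lsmem2 followed with 1.93, 1.42 and 1.21 FPKM, the values of Mst1r and Lsmem2 overlapping, and Pcbp4 and Spsb4 were last with 0.581 and 0.504 FPKM. In Srsf2 mutated libraries Acpp came next with 4.53 FPKM and Mst1r was last with 0.221 FPKM. In labelled knockout libraries Paqr9 (9.68 FPKM) and Mst1r (8.36 FPKM) followed Rpl29, whose values of 9.81 and 14.1 FPKM overlapped those of Paqr9, and Acpp and Pcbp4 were last with 0.534 and 0.434 FPKM. In wild type, Acpp came next with 3.22 FPKM, and Lsmem2 and Mst1r were last with 0.160 and 0.137 FPKM, overlapping each other.

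Srsf2 mutation on its own went with differences under 4-fold in all 8 genes. Between Srsf2 mutated and wild type libraries, 4 of the 8 genes were past the threshold, 2 higher and 2 lower. Of all genes 56.3% were, 28.5% higher and 27.8% lower. The values of 5 did not overlap, as for 66.5% of all genes. None of the 8 had a large difference, where 14.2% of all genes did. Lsmem2 had the largest log2 difference, 1.45 (SE 0.43), Spsb4 had -0.56 (SE 0.21), Mst1r 0.55 (SE 0.26), Paqr9 -0.51 (SE 0.13), Pcbp4 0.40 (SE 0.20), Acpp 0.36 (SE 0.10), Ryk 0.28 (SE 0.19) and Rpl29 -0.14 (SE 0.12). Between double mutant and labelled knockout libraries, 6 of the 8 were past the threshold, 3 higher and 3 lower, where 51.8% of all genes were (26.0% higher, 25.8% lower). None of the 8 overlapped, as for 73.5% of all genes, and 3 differences were large (10.0% of all genes). Rpl29 was 22.3-fold and Acpp 13.3-fold higher in double mutant libraries (log2 4.48, SE 0.15, and 3.73, SE 0.12). Mst1r was lower by 2.38 on the log2 scale (SE 0.16), and the other 5 differed by 0.37 to 0.95 in size. These comparisons share libraries with those of Setd2 loss, so their values stand side by side here with no measure of likeness between them.

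**Figure D3:**
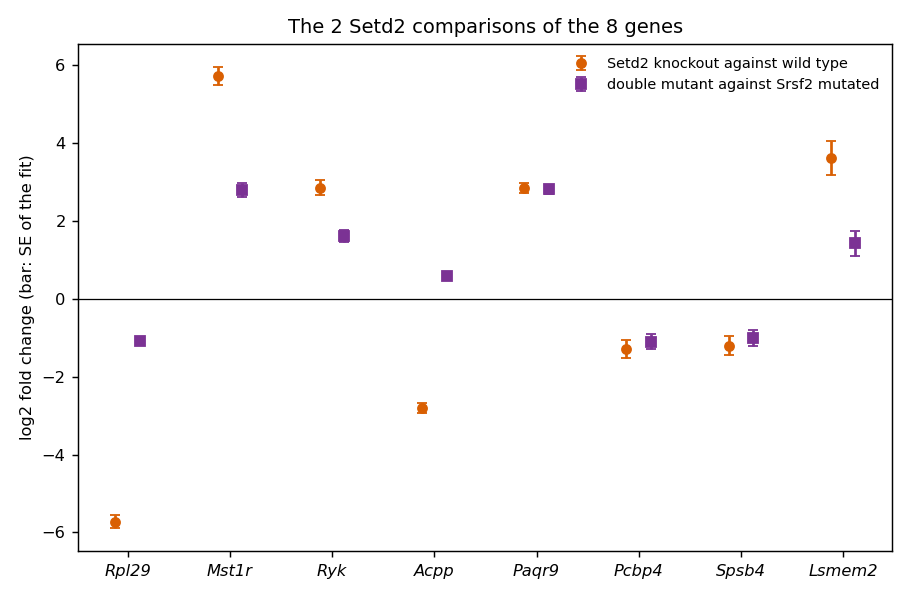
Log2 fold change (points) with the SE of the fit (bars) of each of the 8 genes in 2 comparisons that share no library, labelled Setd2 knockout against wild type (circles) and double mutant against Srsf2 mutated (squares). Paqr9, Pcbp4 and Spsb4 have nearly equal values in both, Rpl29, Mst1r, Ryk and Lsmem2 have values closer to 0 in the second, and Acpp changes sign.

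Genes with the most similar pattern over the 10 libraries were found by Pearson correlation of log2 CPM among 3952 genes that varied at least 4-fold. The libraries fall into 4 groups, so these values describe group patterns and carry no test. Rpl29 was most like Epx, the eosinophil peroxidase (0.979), then Slc39a4 (0.954) and Cox6a2 (0.937). Acpp was most like Hdc, the histamine-forming enzyme (0.992), then Prg3, an eosinophil granule protein (0.987), and Alox5, the leukotriene-forming lipoxygenase (0.985). Paqr9 was most like Smim1, the Vel blood group protein (0.992), Epor, the erythropoietin receptor, and Spire1 (both 0.990). Mst1r was most like Pdia2, Ccr2 and Pvt1 (each 0.977), and Ryk was most like Ccr2 (0.981), Mst1r (0.975) and Mboat2 (0.969). Lsmem2 was most like Slc15a2 (0.971), Ccr2 (0.965) and Slc38a9 (0.950). Pcbp4 was most like Mkrn3 (0.955), Serpinh1 (0.936) and H2afy2 (0.924), and Spsb4 like Klk8 (0.954), Ptk7 (0.922) and Slc4a8 (0.917). Ccr2, the monocyte chemokine receptor, stood in 3 of these lists and itself lies on chromosome 9, 13.48 Mb from Setd2 on the side of higher coordinates.

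The neighbourhood of Setd2 was described with the 8 genes left out. Of 375 other tested genes within 20 Mb, out of 865 listed there, 77 rose and 90 fell between labelled knockout and wild type, 44.5% in all, and under upper-quartile scaling 84 rose and 70 fell. Beyond 20 Mb on chromosome 9, 37.6% of 684 tested genes were past the threshold. Large differences made up 10.7% of the neighbours (39 higher, 1 lower). They made up 7.46% of chromosome 9 beyond 20 Mb (48 higher, 3 lower) and 7.21% of all genes (1297 higher, 94 lower). Most large differences were thus upward in all 3 sets. Between double mutant and Srsf2 mutated libraries, 74 of the neighbours rose and 68 fell (64 and 82 under upper-quartile scaling), 37.9% in all, against 34.6% beyond 20 Mb. Large differences made up 5.07% of the neighbours, against 3.95% and 4.02%. The median log2 difference of the neighbours was 0 in the first comparison and 0.02 in the second, where it was 0.04 and 0 over all genes. Without Setd2 knockout replicate 1, the genes past the threshold numbered 4792 in place of 7449 in all, and 118 in place of 167 among the neighbours.

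By distance, with the 8 genes and Setd2 left out, large differences between labelled knockout and wild type made up 11.6% of 129 tested genes from 0 to 5 Mb on the lower side, 12.2% of 41 from 5 to 10 Mb and 17.9% of 39 from 10 to 15 Mb. On the other side they made up 7.5% of 40, 4.17% of 48 and 10.8% of 65 genes over the same distances. Between double mutant and Srsf2 mutated libraries the shares were 5.43%, 7.32% and 0% on the lower side, and 12.5%, 2.08% and 4.62% on the other. The window of chromosome 9 with the highest share in labelled knockout libraries lay from 35 to 40 Mb on the lower side, where 25.9% of 58 genes differed that much. By fixed windows of 5 Mb over the genome, again without the 8 genes, the one from 95 to 100 Mb, around Paqr9 and Spsb4, ranked 25 of 352 by that share (17.1%), the median window having 6.25%. In double mutant libraries none of its 41 other genes had a large difference, where the median window had 3.23%. The window from 105 to 110 Mb, around Rpl29, Pcbp4, Lsmem2 and Mst1r, ranked 59 in the first comparison (12.2%) and 91 in the second (5.69%).

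**Figure D4:**
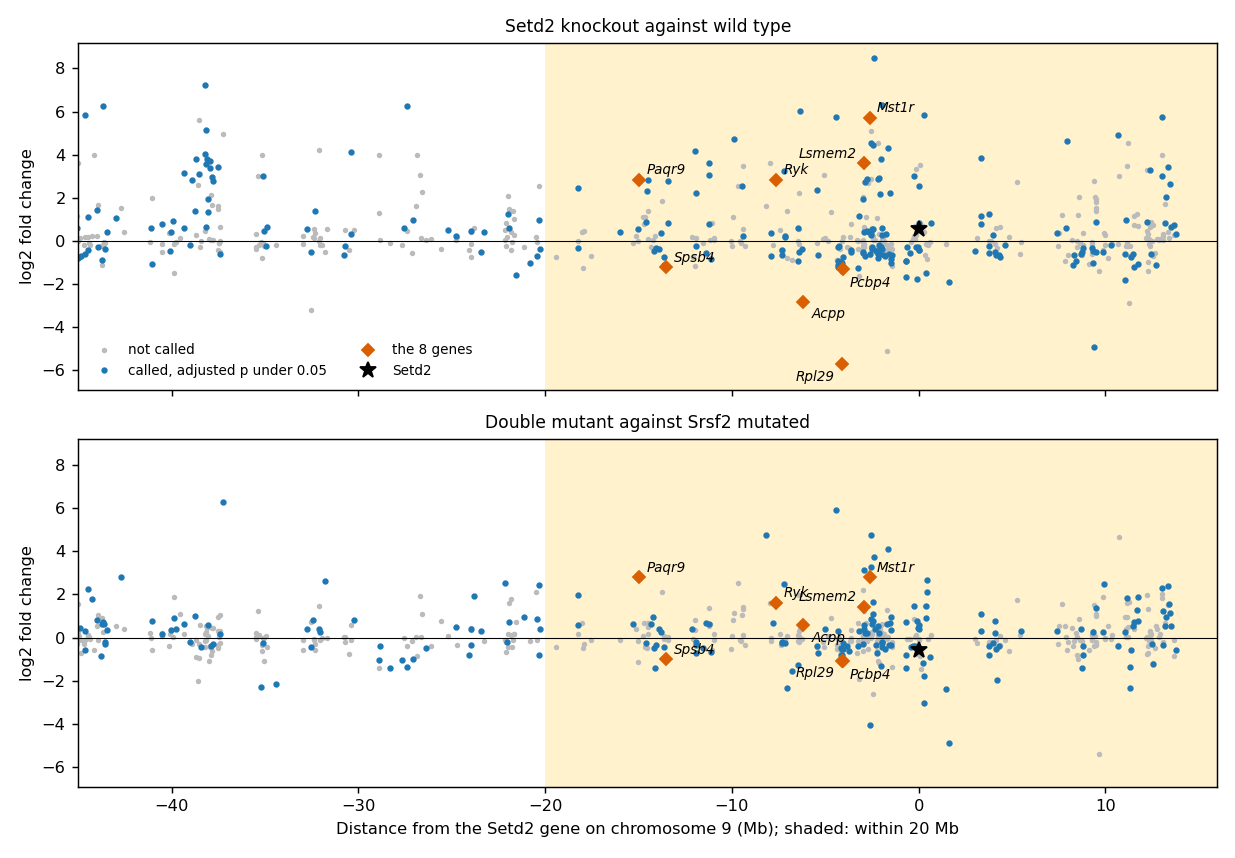
Log2 fold change of tested chromosome 9 genes against distance from Setd2 in Mb (negative: lower coordinates; genes more than 45 Mb away are not drawn), for labelled Setd2 knockout against wild type (top) and double mutant against Srsf2 mutated (bottom). The 8 genes (diamonds) lie on the lower side, among neighbours of which 44.5% and 37.9% were called (dark points), and the shading marks 20 Mb.

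In both Setd2 comparisons 85 of the neighbours were past the threshold, 55 of them in the same direction (64.7%, against 60.4% over all genes) and 30 in the opposite one. Among the neighbours, 40 had a large difference in labelled knockout libraries. In double mutant libraries 11 of these were past the threshold in the same direction (27.5%, against 18.4% over all genes). A smaller difference there was seen for 39 of the 40, and for 1329 of 1391 such genes among all tested. Both sets were picked for size in labelled knockout libraries. The 6 named neighbours with the largest difference shared by both comparisons were Col6a4, Ccr1, Slc6a20a, Ccr2, Fbxl2 and Abhd14b. Ccr1, an inflammatory chemokine receptor, had 201, 206 and 213 CPM in double mutant and 38.5, 36.9 and 42.6 CPM in Srsf2 mutated libraries. It had 101 and 94.9 CPM in labelled knockout libraries, against 9.13 and 9.29 CPM in wild type. It rose by 2.39 in double mutant (adjusted p = 9.45e-13) and 3.41 in labelled knockout libraries (adjusted p = 2.51e-12, edgeR). Ccr2 rose by 1.11 and 2.62 (adjusted p = 9.71e-10 and 5.12e-12, edgeR), to means of 222 and 401 CPM, against 103 CPM in Srsf2 mutated and 65.1 CPM in wild type. Slc6a20a, an amino acid transporter, rose by 2.30 and 3.0 (adjusted p = 9.63e-06 and 7.43e-05, edgeR), and Fbxl2, an F-box protein, by 1.10 and 1.15 (adjusted p = 0.000502 and 0.00157, edgeR). Col6a4, a collagen chain, had 117, 124 and 105 counts in double mutant and 6, 0 and 0 in Srsf2 mutated libraries, and 12 and 2 in labelled knockout libraries, against 0 and 0 in wild type.

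Of the 16 tested genes directly beside the members, 7 were past the threshold in labelled knockout libraries (43.8%, against 38.6% of all genes) and 8 in double mutant libraries (50%, against 33.8%). Their median absolute log2 difference was 0.557 and 0.529, where that of the members, which were picked for size, was 2.84 and 1.26. Acy1, 1413 bases past Rpl29, differed by 0.01 in labelled knockout libraries (adjusted p = 0.95, edgeR). In double mutant libraries Acy1 differed by -0.53 (adjusted p = 0.000478, edgeR). Dusp7, 53730 bases before Rpl29, fell in double mutant and labelled knockout libraries (log2 -0.79 and -0.98, adjusted p = 1.87e-05 and 1.46e-05, edgeR). Mon1a, 3734 bases before Mst1r, fell by 0.63 in labelled knockout libraries (adjusted p = 0.000517, edgeR), where Mst1r was high. Ifrd2, 456 bases from Lsmem2, rose by 0.56 in double mutant and 0.42 in labelled knockout libraries (adjusted p = 1.14e-05 and 0.0011, edgeR). Abhd14b, 368 bases from Pcbp4, fell in double mutant and labelled knockout libraries (log2 -0.96 and -1.40, adjusted p = 0.0027 and 0.000387, edgeR), where Pcbp4 was lower. Parp3 on its other side fell too (log2 -0.53 and -0.75, adjusted p = 0.0003 and 0.00013, edgeR). These flanking genes other than Abhd14b were named after their values were seen.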

How the data were processed

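RNA-seq counts of 10 bulk libraries were used. Per the file headers, the authors' deposited tables, one per pair of groups, give read counts per gene, FPKM and the authors' log2 fold change; FPKM equalled the count over listed length and library total. Per the submitters' processing notes, the tools include HISAT2 2.0.5, HTSeq 0.9.1 and featureCounts 2.0.1, with no role given. Strand and the treatment of reads matching several places are not given in the sources used here. Tables were joined on 55421 identifiers; 5 libraries present in 2 tables had identical counts, 0 single-sample columns were left over, and 27 symbols turned into dates were restored. Positions came from GENCODE M21 on GRCm38 (99.83% of tested genes).

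In R 4.3.3, edgeR 4.0.16 (filterByExpr, TMM, 1 quasi-likelihood fit over all libraries, a term per group) tested 19289 genes with Benjamini-Hochberg adjustment over all of them at a threshold of 0.05. Values per sample are CPM, with SDs over libraries, and SEs are those of the fit on the log2 scale. DESeq2 1.42.0 and other settings served as alternatives, and the fit was checked on simulated counts. The members, gene lists and marker lists were chosen with earlier results of these data known, so no p is given for members. Named genes were the 8 members, 6 neighbours of largest shared difference (at least 1 CPM), the 3 most similar genes per member, up to 3 genes per list by adjusted p (1 of them is not reported here), and Rpl29 copies of at least 0.5 CPM. The copies' sequences and the promoters came from the reference transcripts and RefSeq.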

Additional observations from a re-analysis of the deposited data

Results flagged for a closer look

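Several named genes differed in their response to Setd2 loss between the Srsf2 backgrounds, as did 31.9% of all genes tested. The values are the log2 difference between double mutant and Srsf2 mutated libraries minus that between labelled knockout and wild type libraries, tested as an interaction by edgeR's quasi-likelihood test with Benjamini-Hochberg adjustment over all tested genes. Of the 8 members, Acpp went in opposite directions in every library (3.37, SE 0.155), and since it was chosen for its values that difference was not tested. Setd2 itself differed by -1.14 (SE 0.156, adjusted p = 3.48e-05). The neighbours and family genes below were named by their values in the Setd2 comparisons, which enter this difference. Their adjusted p-values are therefore not free of that choice and serve as description only.

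Among the neighbours, the chemokine receptors Ccr1 and Ccr2 had values of -1.02 (adjusted p = 4.05e-06) and -1.51 (adjusted p = 1.22e-08). Among the copies of Rpl29, Gm10709 had 5.62 (adjusted p = 8.91e-09) and Gm5561 had 3.30 (adjusted p = 0.042).

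In the families of the members, the adiponectin receptors Adipor1 and Adipor2 had 1.43 (adjusted p = 4.69e-08) and 0.58 (adjusted p = 0.000117), and Paqr7 had 1.10 (adjusted p = 1.13e-05). Entpd1 and Acp6, relatives of Acpp in nucleotide and phosphate hydrolysis, had 2.23 (adjusted p = 4.29e-09) and -1.11 (adjusted p = 8.95e-06). The p53 targets Pmaip1, Mdm2 and Gadd45a had -1.09, -0.31 and 0.53 (adjusted p = 0.000127, 0.0204 and 0.00487). The ribosomal protein genes Rpl39 and Rplp0 had 0.70 and 0.43 (adjusted p = 0.00336 and 0.0266). The ubiquitin ligase parts Cul5 and Elob had -0.61 and 0.38 (adjusted p = 0.00322 and 0.042), the protease inhibitor Spint2 had 0.41 (adjusted p = 0.0244), and the poly(C)-binding gene Pcbp2 had 0.27 (adjusted p = 0.0373).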

How the results depend on the processing

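The 8 genes kept their sign in all 544 combinations of gene, comparison and setting tried. The settings were another scaling, other low-count filters, DESeq2, fits on the compared groups only, the replicate block and each library left out. Their size moved with 1 library left out. Between labelled knockout and wild type, Lsmem2 then ranged from 3.28 to 4.01 (3.60 with all libraries) and Ryk from 2.58 to 3.17 (2.85). Acpp between double mutant and labelled knockout was 3.65 without Setd2 knockout replicate 2, where it was 3.73 (SE 0.12) with it. Genes past the threshold ranged, with 1 library left out, from 4792 (without Setd2 knockout replicate 1) to 8803 for the labelled knockout set against wild type. They ranged from 5331 to 6783 for double mutants set against Srsf2 mutated cells, 8718 to 11498 for Srsf2 mutation alone, 7972 to 11042 for double mutants set against labelled knockouts, and 4472 to 7567 for the difference of the Setd2 effects. Among the neighbours they ranged from 118 to 188 and from 119 to 146 in the 2 Setd2 comparisons. A lone library in a group was then assumed to vary like the other groups.

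Large differences within 20 Mb, members included, numbered 46 in labelled knockout and 21 in double mutant libraries. They numbered 12 in double mutant under the stricter low-count filter, which tested 287 of the 384 genes, and 70 and 50 where a 2-fold difference was enough. With 1 library left out they ranged from 33 to 51 and from 19 to 24. Within 10 Mb, 122 and 99 of 258 neighbours were past the threshold, and within 40 Mb 215 and 184 of 514.

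Under upper-quartile scaling the genes past the threshold in labelled knockout split into 4275 higher and 2911 lower (59.5% higher, against 48.4%), and those for the difference of the Setd2 effects into 37.6% higher, against 52.4%. The median over all genes was then 0.13 and -0.21, against 0.04 and -0.07, and 0.18 against 0.08 for Srsf2 mutated against wild type. No member changed sign under it. Of the ribosomal protein genes 35 then fell with Srsf2 mutation alone, against 58.

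With the replicate number as a block, genes past the threshold numbered 7513, 6642, 10501, 9756 and 6188 in the order of the first paragraph, and neighbours 166 and 144. Libraries of the same number did not deviate together (correlations of -0.0219 to 0.0197). With only 2 or 3 libraries in a group, this cannot exclude that the numbers pair them. The counts of 15 and 9 reads for Lsmem2 and 34 and 28 for Mst1r in wild type limit how closely their fold differences are known.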

Other observations

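The gene lists around the members also differed with Srsf2 mutation alone. Of 15 p53 targets other than Pcbp4, 9 rose and 2 fell between Srsf2 mutated and wild type libraries, with a median log2 difference of 0.71, where 28.5% of all genes rose, 27.8% fell and the median was 0.08. Cdkn1a, the cell cycle inhibitor p21, rose by 2.84 (adjusted p = 1.98e-11, edgeR), Pmaip1 by 3.36 (adjusted p = 1.12e-11, edgeR) and Bbc3 (Puma), a cell death gene, by 2.59 (adjusted p = 3.37e-10, edgeR). Pcbp4 differed by 0.40 (SE 0.20) there. Of the 84 ribosomal protein genes other than Rpl29, 5 rose and 58 fell, with a median of -0.28. Of the 13 tested relatives of Acpp in the list of acid phosphatases, ecto-nucleotidases and adenosine receptors, 6 rose and 2 fell. Adora2b, an adenosine receptor, rose by 4.40 (adjusted p = 7.73e-10, edgeR), Alpl, an alkaline phosphatase, by 3.34 (adjusted p = 3.27e-09, edgeR) and Nt5e (CD73), which turns AMP into adenosine as Acpp can, by 2.51 (adjusted p = 1.23e-08, edgeR). Nt5e also rose in double mutant over Srsf2 mutated libraries, by 2.54 (adjusted p = 2.16e-10, edgeR). Pcbp4 apart, these examples were named after their values were seen.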
